A study of Homo sapiens with 12 samples.

Results

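The BCL2 family of apoptosis regulators was followed through 12 RNA-seq libraries from human liver cancer cell lines in which CD146, a cell adhesion molecule encoded by MCAM, was lowered or raised. The 10 genes were chosen by name from the main classes of the family, and all 10 were found by symbol among the 61806 gene identifiers of the count table. They are the anti-apoptotic BCL2, BCL2L1 and MCL1, the effectors BAX and BAK1, and the BH3-only genes BBC3, PMAIP1, BIK, BCL2L11 and BID. The line labelled Hep3B carried a Tet-on inducible shRNA against CD146 (CD146 sh, 3 libraries) or an inducible control shRNA (Con sh, 3 libraries) and was grown in DMEM. HepG2 carried the CD146 vector (CD146oe, 3 libraries) or the pLVX vector without CD146 (pLVX, 3 libraries) and was grown in MEM. Hep3B and HepG2 were each established long ago from a tumour of the human liver. Whether any of these lines is a single clone was not given in the sources used here. The shRNA libraries are numbered 1 to 3 in each group, which may stand for hairpins or for repeats, and nothing in the labels says that replicates came from separate cultures. The p-values therefore set differences between groups against the variation among these libraries, and that variation may be technical.

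Proteins of the BCL2 family decide whether the outer mitochondrial membrane is opened, the step that releases cytochrome c and starts the caspase cascade. Anti-apoptotic members hold the effectors BAX and BAK1 in check, and BH3-only proteins bind the anti-apoptotic members or the effectors through a short helix, the BH3 motif, and so free or activate the pore. Hepatocytes are known to depend on MCL1 and BCL2L1, and the levels of several BH3-only genes are set by stress pathways such as the integrated stress response.

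The BH3 motif is the stretch that the proteins of all 3 classes share. Its coding sequence was read from the GENCODE version 29 transcripts (GRCh38) and was found once in each of the 10 genes, in a single exon. The stretches of the 4 members that the results turn on are shown 5′ to 3′ on the coding strand, with the codon of the conserved leucine and the codons of the small residue and aspartate that follow it in capitals.
BCL2L1 (chr20:31721928-31721957, minus strand): caagcgCTGagggaggcaGGCGACgagttt
MCL1 (chr1:150578871-150578900, minus strand): gagaccTTAcgacgggttGGGGATggcgtg
PMAIP1 (chr18:59902667-59902696, plus strand): actcaaCTCaggagatttGGAGACaaactg
BID (chr22:17739421-17739450, minus strand): aggcacCTCgcccaggtcGGGGACagcatg

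Library totals, in M (1e6 counts), were 14.1 to 18.1 for the CD146 shRNA group, 13.8 to 16.7 for the control shRNA group, 13.3 to 16.9 for CD146oe and 12.8 to 16.7 for pLVX. Levels are given as CPM, counts per 1e6 after TMM scaling within each line, and 3 counts, the floor of detection, were worth 0.165 to 0.235 CPM. MCAM averaged 24.4 ± 2.44 CPM with the CD146 shRNA and 115 ± 3.53 CPM with the control shRNA (SD, n = 3 each; log2 fold change -2.25, edgeR adjusted p = 5.5e-29). It averaged 1932 ± 30.9 CPM with CD146oe and 23.4 ± 0.407 CPM with pLVX (SD, n = 3 each; log2 fold change 6.37, edgeR adjusted p = 5.6e-67), and the counts do not separate the introduced copy from the endogenous one. The libraries labelled Hep3B went against the hepatocyte markers known from that line. Counted per 1e6 counts of each library without TMM scaling, as for all marker sums here, the 11 hepatocyte markers summed to 9.43 to 78.1 CPM with the CD146 shRNA and 7.63 to 10.4 CPM with the control shRNA, against 57151 to 57872 CPM with CD146oe and 62053 to 64211 CPM with pLVX, and TTR and AFP were at 0 in all control shRNA libraries. The libraries labelled Hep3B are therefore called by their label throughout. CD146 shRNA replicate 3 stood apart, with hepatocyte markers at 0.129% of the HepG2 mean against 0.0126% to 0.0172% in the other 5 libraries labelled Hep3B. The sum hides larger gaps of single genes. That replicate had 298 counts of ALB against 0 to 5 in the other 5 libraries, and 306 of APOB against 1 to 6. It had 145 counts of HNF4A against 99 to 165, and 2 of TTR against 0 to 20. No call of a family member in the knockdown comparison changed without that library.

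Sums of markers of other cell types also differed between groups, in part through single genes. The 4 fibroblast markers summed to 92.9 to 114 CPM with the CD146 shRNA and 58.2 to 66.8 CPM with the control shRNA, with none at 0 in every library of a group. COL1A1 held 1164 to 1756 of 1312 to 2064 summed counts with the CD146 shRNA and 838 to 1015 of 921 to 1105 with the control shRNA. COL1A1, COL1A2 and PDGFRB rose in the knockdown, and DCN had at most 4 counts in any library. COL1A2 had 148, 150 and 19 counts in CD146 shRNA replicates 1, 2 and 3, and 3 counts in each control shRNA library. The 4 endothelial markers summed to 23.4 to 24.1 CPM with the CD146 shRNA and 2.88 to 3.48 CPM with the control shRNA, with KDR at 0 in both. CDH5 held 270 to 358 of 331 to 429 summed counts with the CD146 shRNA and 10 to 15 of 40 to 58 with the control shRNA. CDH5 (log2 fold change 4.72) and VWF (1.43) rose, and PECAM1 did not pass the test (0.18, edgeR adjusted p = 0.588). The 4 cholangiocyte markers summed to 157 to 162 CPM with the CD146 shRNA and 189 to 203 CPM with the control shRNA, and to 486 to 499.8 CPM with CD146oe and 346 to 364 CPM with pLVX, with none at 0 in every library of a group. KRT7 and KRT19 went opposite ways between the lines. KRT7 had 1393 to 2205 counts in libraries labelled Hep3B and 0 to 2 in HepG2, and KRT19 had 0 to 6 and 352 to 1300. In the knockdown KRT7 and SOX9 fell, EPCAM did not pass the test and KRT19 was too low to be tested. With CD146oe KRT19, EPCAM and SOX9 rose, and KRT7 was too low to be tested. The 4 leukocyte markers summed to 0.291 to 1.7 CPM with the CD146 shRNA and 0.363 to 0.48 CPM with the control shRNA, and to 987 to 1056 CPM with CD146oe and 1271 to 1337 CPM with pLVX. In HepG2 nearly all of this was LYZ, with 13137 to 17453 of 13142 to 17460 summed counts with CD146oe and 16220 to 21292 of 16233 to 21298 with pLVX. CD68 had at most 14 counts and PTPRC at most 4 counts in any library, and CD3E had 1 count, in pLVX replicate 1, and 0 in the other 11 libraries. The part of these markers in the results that follow was not tested. In bulk RNA, fewer cells that express a gene and less of its RNA per cell cannot be told apart.

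Compared per length, as the FPKM deposited by the authors, MCL1 was the most abundant of the 10 transcripts in all 4 groups. MCL1 is a short-lived anti-apoptotic protein that PMAIP1 binds preferentially. Its level averaged 59.7 ± 2.90 FPKM with the CD146 shRNA, 66.6 ± 1.29 with the control shRNA, 37.5 ± 1.93 with CD146oe and 32.5 ± 0.995 with pLVX (SD, n = 3 each). In both HepG2 groups the order after MCL1 was BCL2L1, BAX, BAK1, BCL2L11 and BID, each above the next in every library, followed by BBC3 and PMAIP1, whose libraries overlapped, and then by BIK and BCL2, whose libraries overlapped too. With the control shRNA the order was BCL2L1, BAX and PMAIP1, each separate from the next. BID, BAK1 and BCL2L11 came after them with libraries that overlapped between neighbours, and BIK, BBC3 and BCL2 stood last, separate from each other. With the CD146 shRNA, PMAIP1 stood next to MCL1, ahead of BCL2L1 and BAX, which overlapped, and BID stood behind BCL2L11 and BAK1. PMAIP1 was thus the member whose place differed most between the groups, at rank 2 of 10 with the CD146 shRNA, rank 4 with the control shRNA and rank 8 in both HepG2 groups.

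**Figure D1:**
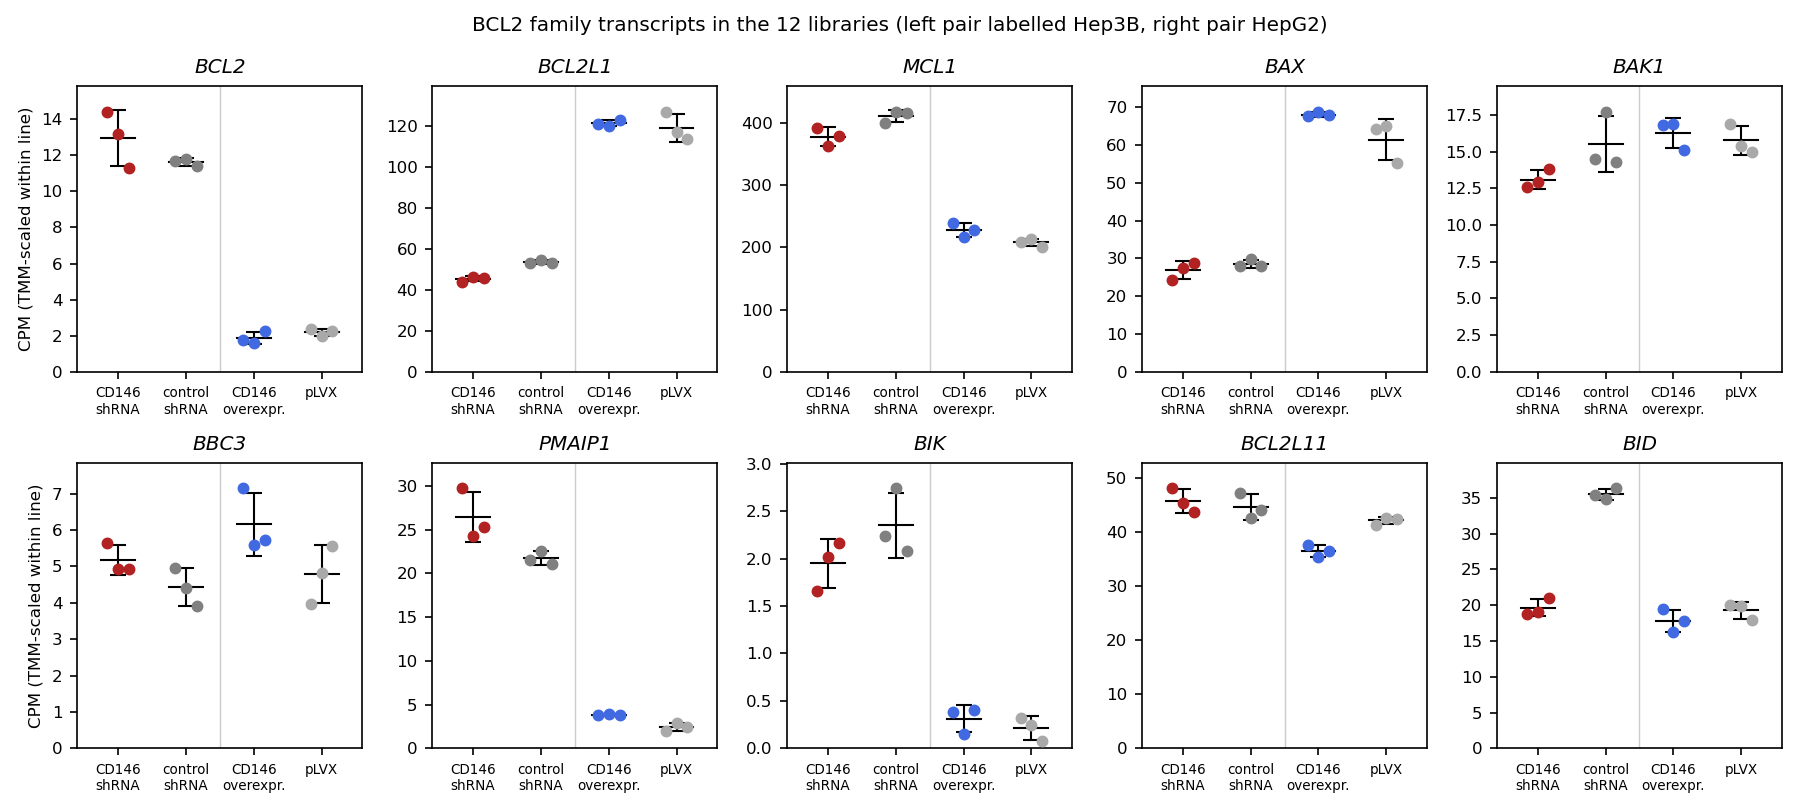
Level of each of the 10 genes (y axis, CPM, TMM-scaled within each line, from 0) in every library, with the mean (horizontal bar) and SD (whiskers) of each group of 3. BID lies at 18.8 to 21.0 CPM with the CD146 shRNA and 34.8 to 36.3 CPM with the control shRNA, and PMAIP1 lies higher with the CD146 shRNA than with the control shRNA, and higher with CD146oe than with pLVX.

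Knockdown of CD146 asked what changed when CD146 was lowered in libraries labelled Hep3B. Of the 10 family members, 4 fell (BCL2L1, MCL1, BAK1 and BID), 1 rose (PMAIP1) and 5 did not pass the test (edgeR quasi-likelihood test, Benjamini-Hochberg adjusted over 16968 genes, adjusted p under 0.05). Over all genes tested, 55.3% passed, 26.8% higher and 28.5% lower, so that 5 of 10 was near the share of all genes. The groups did not overlap for 5 of the 10 members, against 59.8% of all genes tested. The median log2 fold change of the members was -0.10 and the median size 0.24, beside 0.00 and 0.29 over all genes.

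BCL2L1 encodes BCL-xL, which restrains BAX and BAK1 in hepatocytes. The gene spans chromosome 20 from 31664452 to 31723989 (minus strand, GRCh38). It had 44.1, 46.5 and 45.8 CPM with the CD146 shRNA, against 53.2, 54.8 and 53.2 CPM with the control shRNA. Every CD146 shRNA library was below every control library. The means were 45.5 ± 1.20 and 53.8 ± 0.935 CPM (SD, n = 3 each), a fall by 15.4% (log2 fold change -0.24 with SE 0.06, edgeR adjusted p = 3.3e-04). MCL1 (chromosome 1 from 150574551 to 150579738, minus strand) had 392, 362 and 378 CPM with the CD146 shRNA and 399, 417 and 415 CPM with the control shRNA. The groups were separate, but the highest CD146 shRNA library came close to the lowest control library. The fall was by 8.0% (log2 fold change -0.12 with SE 0.04, edgeR adjusted p = 0.0124). Its call was lost without control shRNA replicate 2 (-0.11, adjusted p = 0.053) or without CD146 shRNA replicate 2 (-0.09, adjusted p = 0.112). BCL2, the founding member, stood at 14.4, 13.2 and 11.3 CPM with the CD146 shRNA and 11.7, 11.8 and 11.4 CPM with the control shRNA. These groups overlapped, and the difference did not pass the test (log2 fold change 0.17 with SE 0.10, edgeR adjusted p = 0.168).

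Among the effectors, which form the pore in the outer membrane, BAK1 fell and BAX did not pass the test. BAK1 (chromosome 6 from 33572547 to 33580293, minus strand) had 12.6, 12.9 and 13.8 CPM with the CD146 shRNA and 14.5, 17.7 and 14.3 CPM with the control shRNA. No library of one group reached the other, and control shRNA replicate 2 stood above the other libraries (log2 fold change -0.24 with SE 0.10, edgeR adjusted p = 0.0373). The BAK1 call was lost without control shRNA replicate 2 (-0.14, adjusted p = 0.271), without CD146 shRNA replicate 1 (-0.20, adjusted p = 0.116) or replicate 2 (-0.23, adjusted p = 0.0807), and with DESeq2 (-0.23, adjusted p = 0.115). BAX, which moves from the cytosol to mitochondria when activated, had 24.3, 27.5 and 28.9 CPM with the CD146 shRNA and 27.9, 29.7 and 28.0 CPM with the control shRNA. Its groups overlapped (log2 fold change -0.09, 95% interval -0.23 to 0.05, edgeR adjusted p = 0.309).

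BID showed the largest change of the 10 members. BID is cleaved by caspase-8 and carries the signal of death receptors to mitochondria. The gene spans chromosome 22 from 17734138 to 17774770 (minus strand). It had 18.8, 19.1 and 21.0 CPM with the CD146 shRNA, against 35.4, 34.8 and 36.3 CPM with the control shRNA. All 3 knockdown libraries lay far below all 3 controls, and the spread within each group was small beside the gap. The means were 19.6 ± 1.18 and 35.5 ± 0.742 CPM (SD, n = 3 each), a fall by 45.0% (log2 fold change -0.86 with SE 0.07, edgeR adjusted p = 2.4e-13). Without CD146 shRNA replicate 3 the log2 fold change was -0.91, and the BID call held in all 14 alternatives. Of the 11 other genes tested within 0.5 Mb of BID, 2 rose and 4 fell, with a median log2 fold change of -0.03. BCL2L13, the family member in that window, averaged 65 ± 3.57 and 61.4 ± 1.06 CPM with the CD146 and the control shRNA (log2 fold change 0.09, edgeR adjusted p = 0.18).

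PMAIP1, which encodes NOXA, was the member that rose. NOXA binds MCL1 and hastens its breakdown. The gene spans chromosome 18 from 59899948 to 59904306 (plus strand) and overlaps no other annotated gene. It had 29.7, 24.3 and 25.3 CPM with the CD146 shRNA, against 21.5, 22.6 and 21.1 CPM with the control shRNA. The groups did not overlap, and CD146 shRNA replicate 1 stood above the other 5 libraries. The means were 26.4 ± 2.88 and 21.7 ± 0.771 CPM (SD, n = 3 each), a rise by 22.3% (log2 fold change 0.29 with SE 0.08, edgeR adjusted p = 0.00193), and the call held in all 14 alternatives. No other gene within 0.5 Mb of PMAIP1 was expressed enough to be tested. The other 3 BH3-only members did not pass the test. BCL2L11, which encodes BIM, stood at 48.1, 45.4 and 43.7 CPM with the CD146 shRNA and 47.3, 42.6 and 44.2 CPM with the control shRNA (log2 fold change 0.03, 95% interval -0.08 to 0.15, edgeR adjusted p = 0.662). BBC3, which encodes PUMA, stood at 5.64, 4.93 and 4.92 CPM with the CD146 shRNA and 4.96, 4.40 and 3.92 CPM with the control shRNA (log2 fold change 0.23, edgeR adjusted p = 0.222). BIK, a BH3-only gene of the endoplasmic reticulum, stood at 1.66, 2.02 and 2.17 CPM with the CD146 shRNA and 2.24, 2.74 and 2.08 CPM with the control shRNA (log2 fold change -0.27, edgeR adjusted p = 0.324). Libraries of these 3 genes overlapped between the groups.

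Overexpression of CD146 asked the converse in HepG2. Of the 9 members tested, 3 rose (MCL1, BAX and PMAIP1), 1 fell (BCL2L11) and 5 did not pass the test, and BIK was too low to be tested. Over the 15300 genes tested, 19.8% passed, 9.55% higher and 10.3% lower. On unscaled library totals 4 members rose and 0 fell, where 3467 of all genes tested passed. Of the genes called with TMM scaling, 48.1% were higher, against 79.5% on unscaled library totals and 75.6% with limma on log2(FPKM + 1). The groups did not overlap for 5 of the 9 members, against 33.6% of all genes tested. The members had a median log2 fold change of 0.04 and a median size of 0.15, beside 0.00 and 0.12 over all genes, so that most differences were small.

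MCL1 had 239, 217 and 228 CPM with CD146oe, against 209, 213 and 201 CPM with pLVX. Every CD146oe library was above every pLVX library. The means were 228 ± 11.2 and 208 ± 6.21 CPM (SD, n = 3 each), a rise by 9.7% (log2 fold change 0.13 with SE 0.04, edgeR adjusted p = 0.00545). This call was lost without pLVX replicate 3 (0.11, adjusted p = 0.0644) or without CD146oe replicate 1 (0.10, adjusted p = 0.0981). BCL2L1 stood at 121, 120.2 and 123 CPM with CD146oe and 127, 117 and 114 CPM with pLVX. Its groups overlapped, and the 95% interval of the log2 fold change was -0.05 to 0.11 (edgeR adjusted p = 0.687). BCL2 was low, at 1.74, 1.62 and 2.25 CPM with CD146oe and 2.35, 1.96 and 2.26 CPM with pLVX (log2 fold change -0.20 with SE 0.24, edgeR adjusted p = 0.638).

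BAX had 67.6, 68.7 and 67.8 CPM with CD146oe, against 64.1, 64.9 and 55.1 CPM with pLVX. All CD146oe libraries were above all pLVX libraries, but pLVX replicate 3 stood well below the other 2 controls. The log2 fold change was 0.15 (SE 0.05, edgeR adjusted p = 0.0364), and the call was lost in 9 of 14 alternatives. Without pLVX replicate 3 the BAX log2 fold change was 0.08 (adjusted p = 0.387), without CD146oe replicate 1 it was 0.15 (adjusted p = 0.0841), without replicate 2 it was 0.14 (adjusted p = 0.0821) and without replicate 3 it was 0.15 (adjusted p = 0.0979). DESeq2 gave an adjusted p of 0.141. BAK1 averaged 16.3 ± 1.02 CPM with CD146oe and 15.8 ± 1.02 CPM with pLVX (SD, n = 3 each), with overlapping groups (log2 fold change 0.04, 95% interval -0.13 to 0.22, edgeR adjusted p = 0.794).

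PMAIP1 had the largest change of the members tested in HepG2. It had 3.86, 3.91 and 3.81 CPM with CD146oe, against 2.02, 2.87 and 2.48 CPM with pLVX. The CD146oe libraries lay close together and above all 3 controls, which spread more. The means were 3.86 ± 0.0472 and 2.46 ± 0.426 CPM (SD, n = 3 each), a rise by 54.5% (log2 fold change 0.63 with SE 0.19, edgeR adjusted p = 0.0143). The call was lost without pLVX replicate 1, the lowest library (0.52, adjusted p = 0.0798), and with DESeq2 (0.64, adjusted p = 0.0859). BCL2L11 fell, with 37.7, 35.5 and 36.6 CPM with CD146oe, against 41.4, 42.7 and 42.5 CPM with pLVX. BIM, its product, binds all anti-apoptotic members and can activate BAX directly. The groups did not overlap (fall by 13.2%, log2 fold change -0.21 with SE 0.06, edgeR adjusted p = 0.00774), and the call held in every fit that left out a library. It was lost on unscaled library totals (-0.13, adjusted p = 0.0969) and with limma on log2(FPKM + 1) (-0.11, adjusted p = 0.0981).

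BBC3 had 7.14, 5.60 and 5.72 CPM with CD146oe, against 3.97, 4.83 and 5.55 CPM with pLVX. Again the groups were separate, though the closest libraries nearly met, and the difference did not pass the test (log2 fold change 0.36 with SE 0.15, edgeR adjusted p = 0.0871). On unscaled library totals BBC3 passed (0.43, adjusted p = 0.0323). BID stood at 19.4, 16.3 and 17.8 CPM with CD146oe and 20, 19.9 and 17.9 CPM with pLVX. These groups overlapped, with a 95% interval of the log2 fold change from -0.27 to 0.05 (edgeR adjusted p = 0.402). BIK had 6, 2 and 7 counts with CD146oe and 4, 4 and 1 counts with pLVX, close to the floor of 3 counts.

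**Figure D2:**
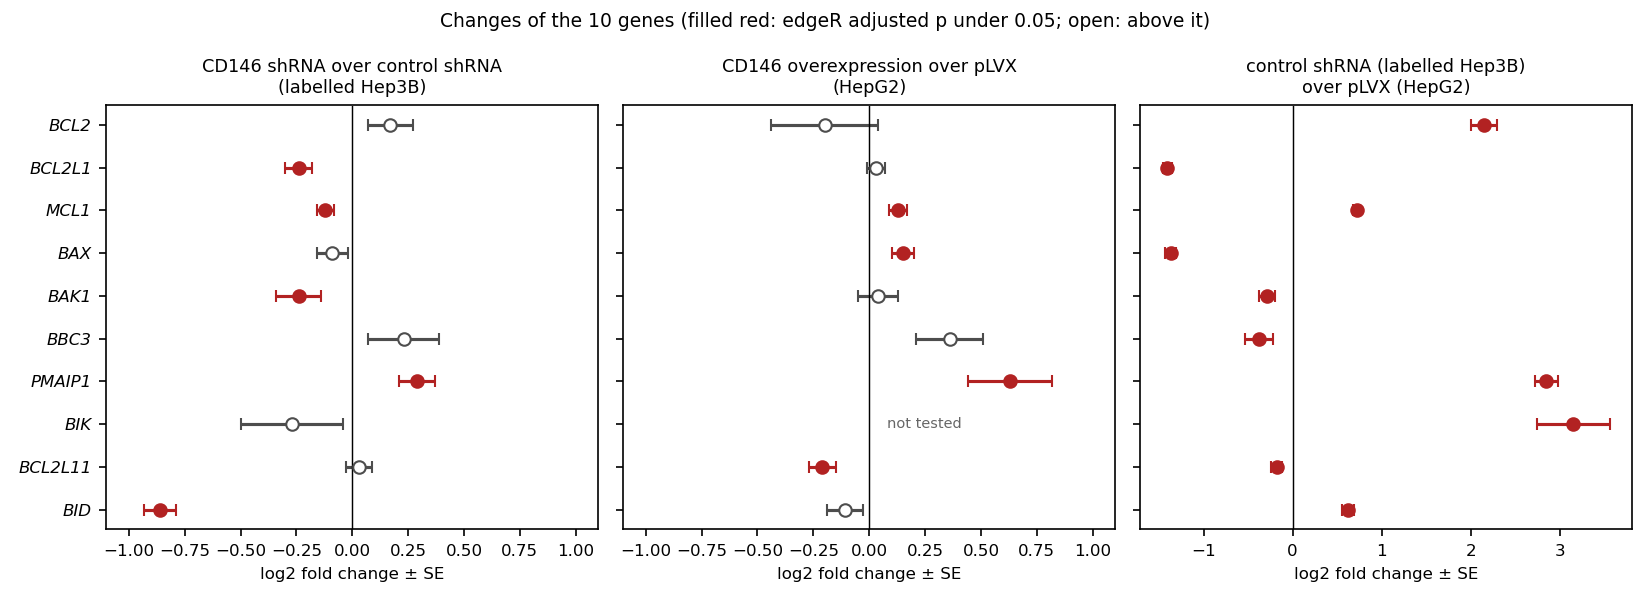
Log2 fold change of each member (x axis, point, with its standard error as whiskers) for CD146 shRNA over control shRNA, CD146oe over pLVX, and control shRNA libraries over pLVX libraries. Filled red points passed the test and open points did not. The right panel has a wider axis, with BIK at 3.15 and BCL2L1 at -1.41.

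PMAIP1 was called higher in both comparisons, although CD146 was lowered in one and raised in the other. The responses were therefore compared directly, as the effect of higher CD146 in HepG2 (CD146oe minus pLVX) less its effect in libraries labelled Hep3B (control shRNA minus CD146 shRNA). In this contrast 2 members were higher (BBC3 and PMAIP1) and 2 lower (BCL2L1 and BID), and 6 did not pass the test, beside 36.4% of 18870 genes that passed. PMAIP1 differed by 0.92 on the log2 scale (SE 0.20, edgeR adjusted p = 1.5e-04) and BID by -0.97 (SE 0.11, edgeR adjusted p = 1.3e-10), and both calls held in all 17 alternatives. BCL2L1 differed by -0.21 (SE 0.07, edgeR adjusted p = 0.0145), a call that was lost without pLVX replicate 1 (-0.17, adjusted p = 0.0641). BBC3 differed by 0.59 (SE 0.22, edgeR adjusted p = 0.0284). The BBC3 call was lost without control shRNA replicate 3 (0.52, adjusted p = 0.0743), CD146 shRNA replicate 1 (0.51, adjusted p = 0.0786), pLVX replicate 1 (0.48, adjusted p = 0.0917) or CD146oe replicate 1 (0.47, adjusted p = 0.118), and with DESeq2 (0.60, adjusted p = 0.0655). MCL1 fell with lower CD146 and rose with higher CD146, and its effects did not differ beyond the test (0.02, 95% interval -0.10 to 0.13, edgeR adjusted p = 0.891). The line and the method of perturbation cannot be told apart in this contrast.

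Promoter sequences of 8 of the 10 members were in the RefSeq table (GRCh38.p14), each from 250 bases before to 50 bases after a start site. The window of PMAIP1 is shown because it was the member called higher in both comparisons. It is given 5′ to 3′ with the core of the cyclic AMP response element in capitals (TGACGT, searched on both strands and read here on the opposite strand), which began 56 bases before the start.
PMAIP1 promoter (chr18:59899746-59900045, plus strand): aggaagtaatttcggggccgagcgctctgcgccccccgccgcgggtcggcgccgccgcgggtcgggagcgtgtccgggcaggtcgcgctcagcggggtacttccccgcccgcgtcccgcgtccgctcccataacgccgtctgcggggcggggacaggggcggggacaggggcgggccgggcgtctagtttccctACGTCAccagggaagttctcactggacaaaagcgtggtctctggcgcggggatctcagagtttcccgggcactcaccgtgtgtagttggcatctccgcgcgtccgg
This core was found in 7.98% of 35116 promoter windows and in no other window of the members. The same PMAIP1 window held 4 copies of the GC box (GGGCGG), which 45.0% of all windows held at least once and 9.06% at least 4 times. Some windows of BID also held 4. A composite ATF4 and CHOP motif (TGATGNAA, searched on both strands) was found in 3.62% of all windows and in none of the members. These are matches of letters, not shown to be sites.

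Between the control libraries the family differed more than within either comparison. Control shRNA libraries (labelled Hep3B) were compared with pLVX libraries (HepG2) in a fit of all 12 libraries, with levels scaled over all of them. All 10 members passed the test, 5 higher (BCL2, MCL1, PMAIP1, BIK and BID) and 5 lower (BCL2L1, BAX, BAK1, BBC3 and BCL2L11), where 83.2% of 18870 genes passed, 43.4% higher and 39.7% lower. The median size of the members' log2 fold changes was 1.04, beside 0.95 over all genes. On unscaled library totals the median of all genes was 0.39 in place of 0.08, and 63.6% in place of 52.2% of the genes called were higher. Small differences in this comparison therefore depend on the scaling.

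PMAIP1 averaged 19.8 ± 0.705 CPM in control shRNA libraries and 2.69 ± 0.470 CPM in pLVX libraries (SD, n = 3 each), 7.22-fold higher (log2 fold change 2.85 with SE 0.13, edgeR adjusted p = 8.7e-28). BIK averaged 2.15 ± 0.315 and 0.234 ± 0.141 CPM (log2 fold change 3.15 with SE 0.41, edgeR adjusted p = 6.8e-10), and the pLVX level rests on 1 to 4 counts a library. It was too low to be tested within HepG2. BIK thus entered this fit only through the libraries labelled Hep3B, where it was high, and its call is limited by that. BCL2 averaged 10.6 ± 0.162 CPM in control shRNA libraries and 2.39 ± 0.220 CPM in pLVX libraries (log2 fold change 2.15 with SE 0.15, edgeR adjusted p = 5.0e-19). None of these 3 genes overlapped between the groups. MCL1, at 374 ± 9.32 and 228 ± 7.55 CPM (log2 fold change 0.72, edgeR adjusted p = 4.1e-23), and BID, at 32.4 ± 0.695 and 21.1 ± 1.37 CPM (log2 fold change 0.62, edgeR adjusted p = 6.7e-11), were also higher in control shRNA libraries.

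BCL2L1 averaged 49.0 ± 0.872 CPM in control shRNA libraries and 130.4 ± 7.36 CPM in pLVX libraries (SD, n = 3 each; log2 fold change -1.41 with SE 0.05, edgeR adjusted p = 1.3e-33). BAX averaged 26.0 ± 0.962 and 67.2 ± 6.13 CPM (log2 fold change -1.37 with SE 0.06, edgeR adjusted p = 2.4e-27). An anti-apoptotic member and an effector were thus lower by similar amounts in the libraries labelled Hep3B. BAK1 (log2 fold change -0.29, edgeR adjusted p = 0.00348), BCL2L11 (-0.18, adjusted p = 0.00527) and BBC3 (-0.38, adjusted p = 0.0283) were lower by less. On unscaled totals the log2 fold change of BAK1 was 0.02 (adjusted p = 0.813) and that of BCL2L11 was 0.14 (adjusted p = 0.0292), so that neither has a firm direction. The BBC3 call was lost on unscaled totals (-0.06, adjusted p = 0.725) and without control shRNA replicate 3 (-0.34, adjusted p = 0.0782), pLVX replicate 2 (-0.38, adjusted p = 0.0619) or pLVX replicate 3 (-0.27, adjusted p = 0.161). Line, medium and vector cannot be told apart here.

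The promoter window of BAX is shown as that of the effector with the larger difference between the controls, with the E-box CACGTG in capitals (its own reverse complement, searched once).
BAX promoter (chr19:48954625-48954924, plus strand): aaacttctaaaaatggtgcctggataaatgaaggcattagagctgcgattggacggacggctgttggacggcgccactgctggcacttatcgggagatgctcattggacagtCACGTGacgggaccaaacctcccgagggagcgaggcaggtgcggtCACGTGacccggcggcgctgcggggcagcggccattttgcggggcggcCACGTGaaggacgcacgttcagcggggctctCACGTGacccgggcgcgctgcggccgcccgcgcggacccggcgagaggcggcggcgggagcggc
It held 4 E-boxes, which began 138, 93, 45 and 14 bases before the start. At least 1 such E-box was found in 7.26% of the 35116 windows, and 4 or more in 0.0142% of them.

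Ratios within a library do not depend on its scaling, and were taken on the FPKM scale. Of the summed FPKM of BCL2, BCL2L1 and MCL1, MCL1 made up 83.6% ± 0.803 with the CD146 shRNA and 82.8% ± 0.303 with the control shRNA, against 55.7% ± 1.18 with CD146oe and 53.9% ± 1.27 with pLVX (SD, n = 3 each). BCL2L1 made up 15% ± 0.825 and 16.1% ± 0.269 in the CD146 shRNA and control shRNA groups, and 44.0% ± 1.17 and 45.8% ± 1.25 in the CD146oe and pLVX groups. The share of BCL2 was between 0.200% and 1.53% in every library. Among these 3 genes, MCL1 thus made up most of the FPKM in libraries labelled Hep3B, and MCL1 and BCL2L1 shared it in HepG2, in the treated and the control groups of each line. These shares leave out other anti-apoptotic genes, of which BCL2L2 stood at 6.5 to 7.1 FPKM with the CD146 shRNA, 6.93 to 7.50 FPKM with the control shRNA, 21.53 to 23.95 FPKM with CD146oe and 21.32 to 22.62 FPKM with pLVX.

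The ratio of MCL1 to PMAIP1 was 4.63, 5.24 and 5.25 with the CD146 shRNA, against 6.53, 6.49 and 6.91 with the control shRNA. It was 21.8, 19.5 and 21.0 with CD146oe, against 36.1, 26.2 and 28.4 with pLVX. In both lines the libraries with altered CD146 lay below all of their controls, and no test was run on these ratios. MCL1 to BCL2L1 was 5.60 ± 0.364 with the CD146 shRNA and 5.15 ± 0.105 with the control shRNA, with groups that met at 5.26, and 1.27 ± 0.061 with CD146oe and 1.18 ± 0.0593 with pLVX, which overlapped. BAX to BCL2L1 was 0.892, 0.959 and 1.02 with the CD146 shRNA, against 0.849, 0.880 and 0.854 with the control shRNA, with groups that did not overlap. It was 0.906, 0.928 and 0.894 with CD146oe and 0.821, 0.900 and 0.784 with pLVX, with groups that overlapped. BAX to BAK1 was 1.43 to 1.82 in libraries labelled Hep3B and 3.15 to 3.84 in HepG2. The 5 BH3-only genes summed to 26.7 ± 1.64 FPKM with the CD146 shRNA and 28.9 ± 0.581 FPKM with the control shRNA, and to 13.9 ± 0.920 FPKM with CD146oe and 13.2 ± 0.449 FPKM with pLVX (SD, n = 3 each).

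**Figure D3:**
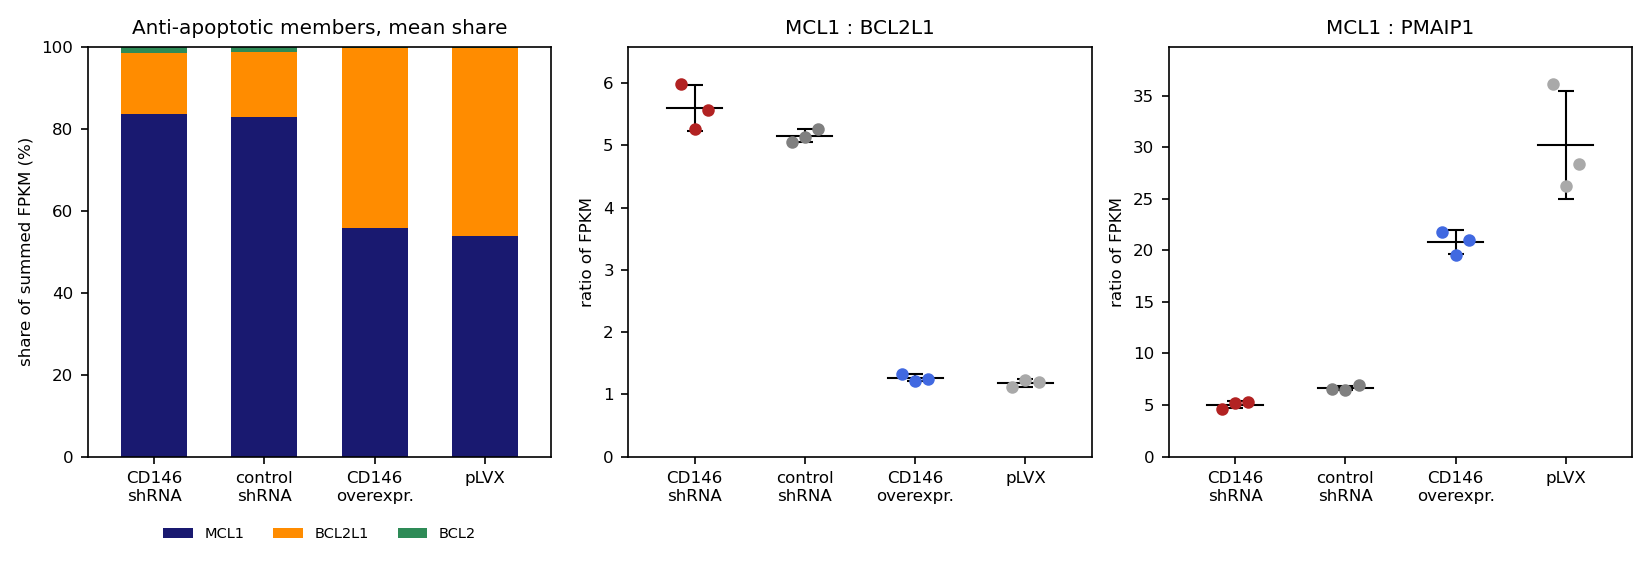
Left, mean share (y axis, percent) of MCL1, BCL2L1 and BCL2 in their summed FPKM in the 4 groups; middle and right, ratios of MCL1 to BCL2L1 and to PMAIP1 per library (points), with the mean (bar) and SD (whiskers). MCL1 to PMAIP1 lies at 4.63 to 5.25 with the CD146 shRNA and 6.49 to 6.91 with the control shRNA, and at 19.5 to 21.8 with CD146oe and 26.2 to 36.1 with pLVX.

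The wider apoptosis pathway was described with 54 genes in 7 lists. After CD146 knockdown, 13 of the 50 genes tested rose and 21 fell, with a median log2 fold change of -0.07, beside 26.8% higher, 28.5% lower and a median of 0.00 over all genes tested. In small lists, counts are to be read against those shares. Among the 10 further family genes tested, 3 rose and 3 fell. BNIP3L, a BH3-like mitophagy receptor, averaged 60.7 ± 3.29 CPM with the CD146 shRNA and 36.4 ± 4.59 CPM with the control shRNA (SD, n = 3 each; log2 fold change 0.73, SE 0.07). BAD, a BH3-only gene regulated by phosphorylation, averaged 12 ± 1.72 and 7.73 ± 1.27 CPM (log2 fold change 0.64, SE 0.12). HRK, a BH3-only gene best known from neurons, averaged 9.39 ± 1.96 and 6.26 ± 1.12 CPM (log2 fold change 0.59, SE 0.14), and its call was lost with limma on log2(FPKM + 1) (adjusted p = 0.098). Among the 11 genes of the apoptosome and the caspases, 1 rose and 5 fell, where 28.5% of all genes fell. CASP9, the initiator caspase of the apoptosome, averaged 38.4 ± 1.98 CPM with the CD146 shRNA and 14.8 ± 1.35 CPM with the control shRNA (log2 fold change 1.38, SE 0.08). CASP6, an executioner caspase, averaged 8.34 ± 0.530 and 12.1 ± 0.201 CPM (log2 fold change -0.54, SE 0.11), and CYCS, which encodes cytochrome c, averaged 338 ± 24.8 and 449.8 ± 3.54 CPM (log2 fold change -0.41, SE 0.04). The genes of an initiator and an executioner caspase therefore moved in opposite directions.

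Among the 6 IAP genes tested, whose products include caspase inhibitors, BIRC3 (log2 fold change -1.06) and BIRC5 (-0.60) fell and BIRC6 (0.18) rose. BIRC3 averaged 32.3 ± 1.31 CPM with the CD146 shRNA and 67.6 ± 3.66 CPM with the control shRNA (SD, n = 3 each). In the death receptor pathway, which leads to BID, 4 of 10 genes rose and 3 fell, where 55.3% of all genes passed, among them TNFRSF10A (-0.60), a TRAIL receptor, TNFRSF1A (0.32), a TNF receptor, and RIPK1 (-0.31), the kinase it recruits. Of 6 transcription factors that are known to act on family genes, 2 rose and 3 fell. DDIT3, which encodes the stress factor CHOP, averaged 19.3 ± 0.427 CPM with the CD146 shRNA and 7.65 ± 1.42 CPM with the control shRNA (log2 fold change 1.35 with SE 0.11, edgeR adjusted p = 6.6e-14). E2F1 (0.31) rose too, and FOXO1 (-0.45), FOXO3 (-0.36) and ATF4 (-0.19, edgeR adjusted p = 3.3e-04) fell. The 4 ubiquitin enzymes that act on MCL1 or its partners split evenly. USP9X (0.17), which stabilises MCL1, and FBXW7 (0.22), part of a ligase for MCL1, were higher, and HUWE1 (-0.13), another ligase for MCL1, and MARCHF5 (-0.24) were lower. The FBXW7 call was lost in 9 of 14 alternatives, among them without control shRNA replicate 2 or 3 or CD146 shRNA replicate 2 or 3, at values of 0.19 to 0.21. All 3 genes of the VDAC channels of the outer membrane fell, where 28.5% of all genes did, VDAC3 by 0.33, VDAC2 by 0.23 and VDAC1 by 0.09 on the log2 scale. The VDAC1 call was lost in 6 of 14 alternatives, among them without control shRNA replicate 1 (adjusted p = 0.0873) or 2 (adjusted p = 0.149) and without CD146 shRNA replicate 1 (adjusted p = 0.155) or 2 (adjusted p = 0.139), at values of -0.09 to -0.07.

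With CD146oe in HepG2, 11 of the 48 genes tested rose and 3 fell, with a median log2 fold change of 0.06, beside 9.55% higher, 10.3% lower and a median of 0.00 over all genes tested. On unscaled library totals 18 of these genes rose and 1 fell, with a median of 0.13, so that the split depends on the scaling. Over all genes on those totals 3467 passed, 79.5% of them higher, with a median of 0.07. BIRC3 averaged 7.73 ± 1.54 CPM with CD146oe and 3.38 ± 0.660 CPM with pLVX (SD, n = 3 each; log2 fold change 1.18, SE 0.16). DDIT3 averaged 17.2 ± 2.0 and 11.5 ± 0.788 CPM (log2 fold change 0.57 with SE 0.10, edgeR adjusted p = 6.6e-06), so that DDIT3, like PMAIP1, was called higher in both comparisons. BNIP3L, CASP9, FAS and CASP8 were also called higher in both. Their log2 fold changes in the knockdown were 0.73, 1.38, 0.21 and 0.18. BIRC5 (-0.60 in the knockdown, -0.16 with CD146oe) and AIFM1 (-0.27 and -0.13) were called lower in both. Over all genes tested, 26.8% were called higher in the knockdown and 9.55% with CD146oe. The share of all genes called the same way in both was not counted, so these genes are not set apart from the rest. FAS, the death receptor, averaged 34.5 ± 1.43 CPM with CD146oe and 23.7 ± 1.94 CPM with pLVX (log2 fold change 0.53, SE 0.07). CFLAR, which encodes the caspase-8 inhibitor FLIP, averaged 115 ± 2.12 and 100.1 ± 1.09 CPM (log2 fold change 0.20, SE 0.04), BNIP3L averaged 45.5 ± 0.981 and 38.0 ± 1.43 CPM (log2 fold change 0.26, SE 0.06), and E2F1 averaged 58.5 ± 1.09 and 68.6 ± 0.184 CPM (log2 fold change -0.23, SE 0.05). Calls of BIRC3 and FAS held without each library in turn, and were lost with limma on log2(FPKM + 0.1) (adjusted p = 0.0599 and 0.0791). None of the 4 ubiquitin enzymes and none of the 3 VDAC genes passed the edgeR test.

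The other 8 genes called in these lists lost their call in 2 to 11 of 14 alternatives, among them fits without single libraries. BMF (log2 fold change 0.23), a BH3-only gene, lost its call without pLVX replicate 1 or 3 or CD146oe replicate 2 or 3, at values of 0.16 to 0.24. BNIP3 (0.11) lost it without pLVX replicate 2 or any CD146oe replicate, at 0.09 to 0.12, and CASP9 (0.40) without pLVX replicate 1 or 2 or CD146oe replicate 3, at 0.26 to 0.40. BCL2L13 (0.21) lost it without pLVX replicate 1 or 2 or CD146oe replicate 2 or 3, at 0.15 to 0.21. AIFM1 (-0.13), which encodes a mitochondrial flavoprotein released on permeabilisation, lost it without pLVX replicate 1 or 3 or CD146oe replicate 1 or 2, at -0.13 to -0.11, and on unscaled totals (-0.05). BIRC5 (-0.16) lost it without pLVX replicate 2 (-0.12) or CD146oe replicate 3 (-0.13), CASP8 (0.18) without CD146oe replicate 2 (0.12), and ATF4 (0.11) without pLVX replicate 3 (0.09) or CD146oe replicate 3 (0.08). BMF stood at 0.669 ± 0.263 CPM with the CD146 shRNA and 1.46 ± 0.190 CPM with the control shRNA, where it fell (log2 fold change -1.09 with SE 0.33, edgeR adjusted p = 0.00478).

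**Figure D4:**
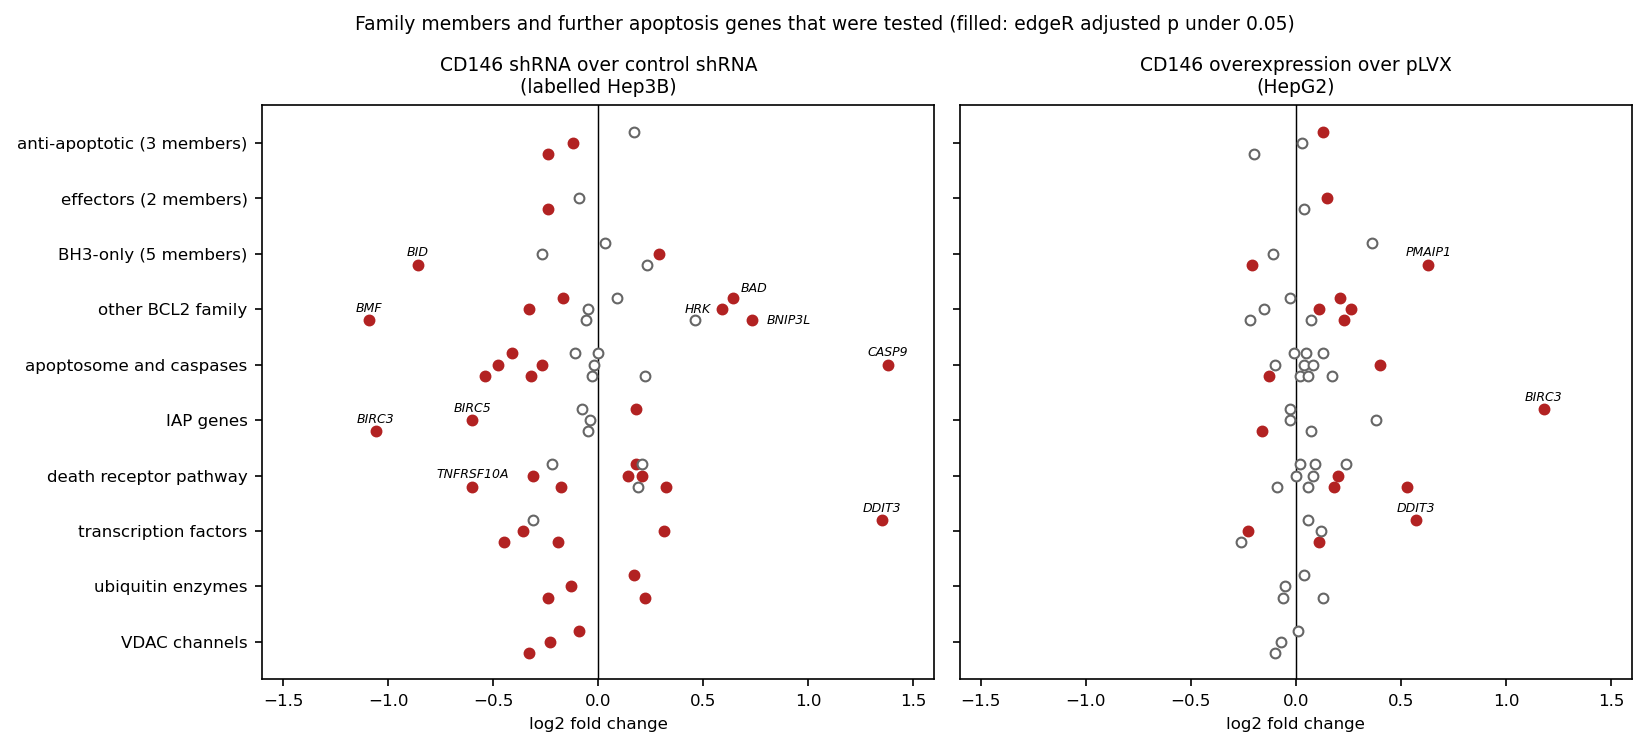
Log2 fold change (x axis) of the members and of the further genes of each list that were tested (rows), for CD146 shRNA over control shRNA (left) and CD146oe over pLVX (right). Filled points passed the edgeR test, and genes beyond 0.55 on the log2 scale are named. The left panel spreads wider than the right, from BMF at -1.09 to CASP9 at 1.38.

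Some of these genes share a locus with other annotated genes. BCL2L1 overlaps ABALON, BAK1 overlaps GGNBP1, BCL2L11 overlaps MIR4435-2HG, MCL1 overlaps ADAMTSL4-AS1, CASP6 overlaps MCUB, FBXW7 overlaps FBXW7-AS1 and DDIT3 overlaps MARS and MBD6. The strand setting of the counting was not given in the sources used here, so part of their counts may belong to the overlapping gene. BAX, PMAIP1 and BIK overlap no other gene in the annotation.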

How the data were processed

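Raw counts per Ensembl gene were deposited by the authors, who also deposited FPKM values (counts scaled by library total and gene length). Over 71192 values of at least 500 counts, 99% were proportional to the counts of their gene within 0.147%. Per the submitters' processing notes, HISAT2 2.2.1, HTSeq 0.6.1 and cutadapt 1.9.1 were used. No source used here gives the genome build, the annotation or the strand setting. Names were found for 61757 of 61806 identifiers, and positions are from GENCODE version 29 (GRCh38). Groups follow the titles and treatment labels.

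The quasi-likelihood test of edgeR 4.0.16 (R 4.3.3, TMM scaling, filterByExpr) was run on the counts, each line alone for the treatments and all 12 libraries for comparisons across lines. P-values are 2-sided and adjusted over all genes tested (Benjamini-Hochberg), called under 0.05. Rose, fell, higher and lower say that a gene passed. The 95% intervals of fold changes are normal intervals from the SE, and the floor of 3 counts covers counting error only, since reads were not marked with molecular identifiers. Between genes, the deposited FPKM were compared. The scripts were tested on simulated data, in which 88.5%, 90%, 80% and 73.5% of 200 genes changed 2-fold were recovered in the knockdown, overexpression, control and difference contrasts, with 8, 7, 10 and 9 false calls.

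Genes named are all 10 members, MCAM and, from each further list and treatment comparison, up to 3 called genes with the smallest adjusted p. BMF, FBXW7, FAS, CASP8, ATF4, E2F1 and AIFM1 in the knockdown, BCL2L2 and BCL2L13 were singled out after values were seen. So were single marker genes, and DDIT3, BNIP3L, CASP9 and BIRC5 as genes called in both comparisons. The members and lists were chosen with earlier results of these data known. Some genes of the lists are not reported here, and counts over the lists leave them out. Alternatives within edgeR were size factors of the DESeq2 type in place of TMM, no filter, a replicate block, 1 fit of all libraries and leaving out each library. The others were the Wald test of DESeq2 1.42.0, and limma 3.58.1 on log2(FPKM + 1) and log2(FPKM + 0.1) for genes of at least 1 FPKM. Unscaled totals were added after seeing the data.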

Additional observations from a re-analysis of the deposited data

Results flagged for a closer look

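The effect of higher CD146 differed between the lines for 4 of 10 members, beside 36.4% of all genes, by the edgeR contrast of the effects themselves (HepG2 minus libraries labelled Hep3B). PMAIP1 differed by 0.92 on the log2 scale (edgeR adjusted p = 1.5e-04), since it was called higher with CD146oe in HepG2 and higher with the CD146 shRNA in libraries labelled Hep3B. BID differed by -0.97 (edgeR adjusted p = 1.3e-10), with a log2 fold change of -0.11 for CD146oe over pLVX and -0.86 for the CD146 over the control shRNA. BBC3 differed by 0.59 (edgeR adjusted p = 0.0284) and BCL2L1 by -0.21 (edgeR adjusted p = 0.0145), calls that were lost in 5 and in 1 of 17 alternatives. Line, medium and method of perturbation cannot be told apart in these differences.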

How the results depend on the processing

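The counts of genes called kept within 1.5 times their value under the alternatives run, except for CD146oe over pLVX, where 3037 genes became 1839 with the DESeq2 Wald test, 1718 with limma on log2(FPKM + 1) and 1688 with limma on log2(FPKM + 0.1), the cause of which was not tested. Leaving out each library gave 8645 to 8894 genes for the CD146 shRNA over the control shRNA (9385 in full), 2262 to 2675 for CD146oe over pLVX, 15332 to 15744 for control shRNA over pLVX (15693 in full) and 6251 to 6631 for the difference between lines (6866 in full). For the knockdown, 48.5% of the genes called were higher, against 39.8% with limma on log2(FPKM + 1). For CD146oe over pLVX, limma on log2(FPKM + 0.1) gave 75.5% higher.

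Same-numbered libraries did not deviate together (correlations of 0.00 to 0.03, and -0.03 to 0.01 between other numbers), so the numbers were not taken as pairs. With the replicate block 9543, 2947, 14349 and 6847 genes were called in the knockdown, overexpression, control and difference comparisons. Under the block the calls of BBC3 (-0.28) and BCL2L11 (-0.11) between the controls were lost.

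On unscaled totals, control shRNA over pLVX turned to 0.02 for BAK1 and 0.14 for BCL2L11. Over the members' alternatives, the call was as in the full fit in 134 of the knockdown, 107 of the overexpression, 102 of the control and 164 of the difference results. In 6, 16, 6 and 6 results the call was lost with the direction kept. For members not called in either fit the sign could differ, as for BIK in the difference contrast (-0.07 to 0.66). With 1 to 7 counts a library, BIK could not be tested in HepG2.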
